A study of Homo sapiens with 9 samples.

Results

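The HOX cluster genes are the protein-coding homeobox genes named HOXA, HOXB, HOXC or HOXD with a paralogue number, and every gene whose symbol is one of those letters followed by digits alone was taken, whatever its level. This gave 39 of 63241 genes, with 11 in HOXA, 10 in HOXB, 9 in HOXC and 9 in HOXD. At least 1 count was recorded for 32 of them, and 19 had enough counts for a test between groups. RNA came from MEG-01, a line of megakaryoblasts established from the blast crisis of a chronic myeloid leukaemia, grown with arsenic disulfide (As2S2), with the protein kinase C activator PMA (a phorbol ester) or as the untreated control. Each of the 3 groups held 3 libraries of polyadenylated RNA. No dose and no duration is stated for either agent, all libraries come from 1 cell line, and nothing says that the libraries of a group were separate cultures. The p-values therefore describe the spread among the libraries at hand, part or all of which may be technical. The series pairs this line with mice that carry a NUP98-HOXD13 transgene, a fusion found in myelodysplasia, and the mice were not analysed here.

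HOX genes encode transcription factors that bind DNA through a homeodomain, usually together with partners of the PBX and MEIS families. They lie in 4 clusters on chromosomes 7, 17, 12 and 2, and within a cluster they are numbered from 1 at the 3′ end to 13 at the 5′ end, the order in which they are switched on along the body axis of the embryo. In blood formation, members of HOXA and HOXB are active in stem and progenitor cells and decline as cells mature, and persistent HOXA9 is a known driver of myeloid leukaemia.

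Library totals ran from 18.2 to 20.4 in units of 1000000 counts, and a count of 0 allows up to 0.147 to 0.165 CPM (counts per 1000000 counts; 3 counts of the library, counting error only). Of 13 megakaryoblast markers, 11 had enough counts for a test, GATA1 and ITGA2B among them, while PF4 and VWF did not. Their summed level was 421 to 477 TPM in As2S2 libraries, 349 to 379 TPM in PMA libraries and 514 to 544 TPM in control libraries. ITGA2B was the largest part of this sum, with means of 138, 68.3 and 190 TPM in the same order. In the tests described below, 4 of the 11 rose and 2 fell with As2S2, and 6 rose and 2 fell with PMA. Of all tested genes 20.3% rose and 19.6% fell with As2S2, and 30.8% rose and 31.1% fell with PMA. Among markers of other cell types, 4 granulocyte markers summed to at most 0.34 TPM in any library. The 6 lymphoid markers, of which MS4A1 was at 0 counts throughout, summed to 2.41 to 3.85 TPM with As2S2, 3.26 to 3.53 TPM with PMA and 1.21 to 1.89 TPM in controls. The 6 monocyte markers summed to 21.5 to 26.3 TPM with As2S2, 22.7 to 28.4 TPM with PMA and 20.1 to 22.4 TPM in controls. The 6 stromal fibroblast markers summed to 0.48 to 1.20 TPM with As2S2, 1.41 to 2.13 TPM with PMA and 0.16 to 0.75 TPM in controls. The 4 endothelial markers summed to 12.6 to 13.3, 6.63 to 7.10 and 11.2 to 14.4 TPM in As2S2, PMA and control libraries. In the same order LYZ averaged 21.2, 23.9 and 19.8 TPM, most of the monocyte sum, with FCN1 and S100A8 near 0. KDR averaged 11.4, 5.53 and 10.6 TPM, most of the endothelial sum, with CDH5 and CLDN5 near 0. COL1A1 of the fibroblast list averaged 0.297, 1.30 and 0.04 TPM, with COL1A2 and COL3A1 near 0. A sum therefore need not stand for its whole list. The part of these lists in the HOX values was not tested. As2S2 replicate 1 and control replicate 2 differed most from their own groups, with a chi-square per gene of 12.01 to 15.2 in each pair that held 1 of them, against 2.42 to 3.46 in the other pairs within groups. These are called the 2 divergent libraries, and HOX results that change without both are given with and without them. The calls of single genes outside HOX were not examined without them.

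In each of the 3 groups HOXB held most of the HOX RNA. HOX levels per gene length, in TPM (transcript abundance scaled to one total in every library), summed to 123, 137 and 136 in the As2S2 libraries, to 87.5, 88.1 and 93.3 in the PMA libraries and to 190, 190 and 191 in the control libraries, with no overlap between groups. HOXB made up 76.0 ± 0.13% of that sum with As2S2, 64.8 ± 1.21% with PMA and 69.6 ± 0.57% in controls (SD, n = 3 libraries each). HOXA made up 17.4 ± 0.28% with As2S2, 25.8 ± 0.36% with PMA and 21.5 ± 0.55% in controls. HOXC held 3.99 ± 0.24%, 6.98 ± 0.93% and 4.38 ± 0.14% of the sum in As2S2, PMA and control libraries. HOXD held 2.64 ± 0.09%, 2.42 ± 0.48% and 4.56 ± 0.14% in the same order of groups. The ranges of the As2S2, PMA and control libraries did not overlap for the shares of HOXA and HOXB.

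**Figure D1:**
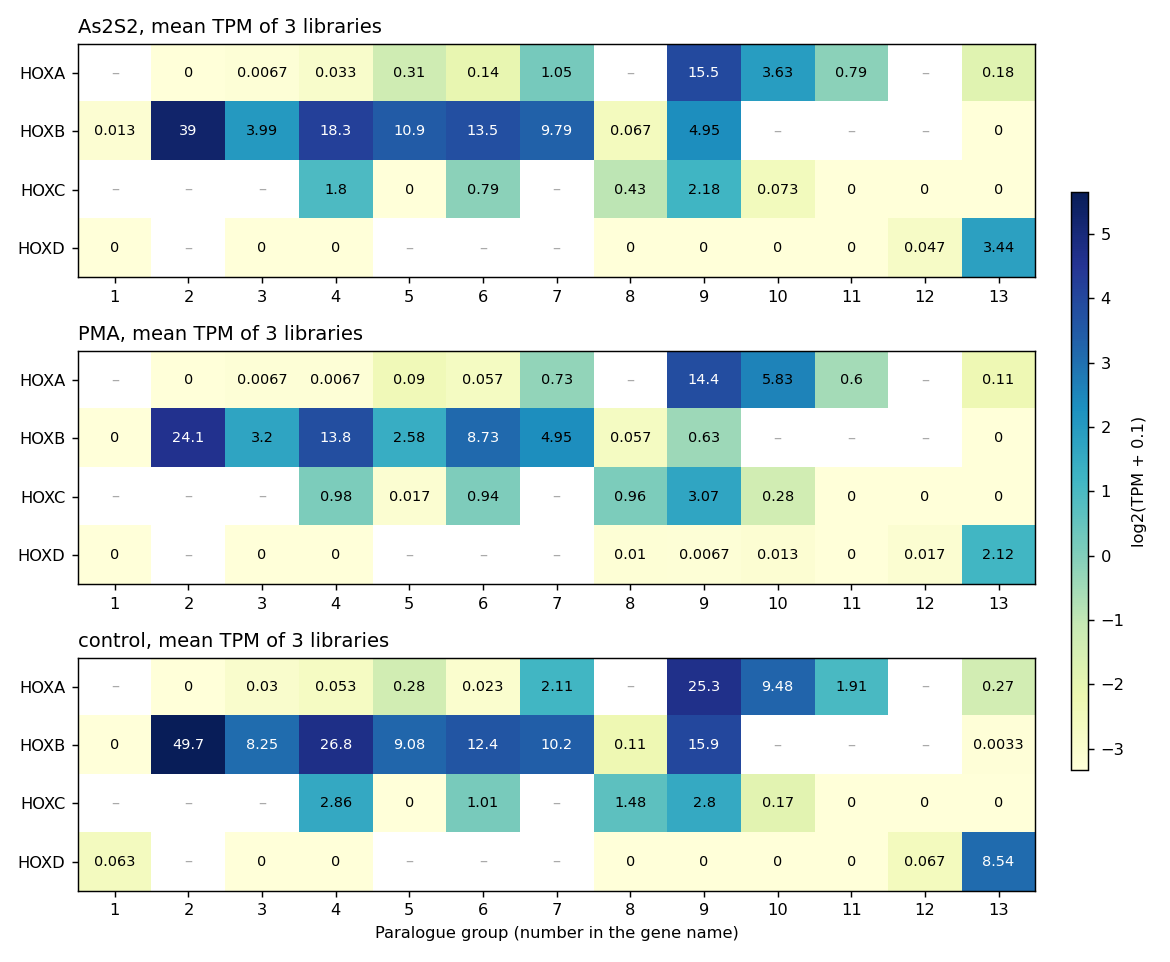
Mean TPM (3 libraries per group) of each HOX gene, with the 4 clusters as rows and the paralogue number from 1 (3′) to 13 (5′) as columns, for As2S2, PMA and control. Colour is log2(TPM + 0.1), and positions with a dash have no gene or are not shown. The dense row is HOXB from HOXB2 to HOXB7 with HOXB9, and HOXD is near 0 except at HOXD13.

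A mean of at least 1 TPM was reached by 14 of the 39 genes with As2S2, by 11 with PMA and by 17 in controls. At 0.5 TPM the numbers were 16, 17 and 17 in the same order. With PMA, HOXC4, HOXC6 and HOXC8 lay just under 1 TPM, at 0.977, 0.943 and 0.96. TPM also includes a shift between groups that is described with the tests below, so the numbers at 1 TPM depend on that scale. The 17 in controls at 1 TPM were 5 of HOXA, 7 of HOXB, 4 of HOXC and 1 of HOXD. HOXB was read as nearly a block, from HOXB2 to HOXB7 and again at HOXB9, while HOXB8 between the last of these had 10, 5 and 17 counts summed over the 3 libraries of As2S2, PMA and control. In HOXA they included HOXA7, HOXA9, HOXA10 and HOXA11, in HOXC they were HOXC4, HOXC6, HOXC8 and HOXC9, and in HOXD it was HOXD13, at the 5′ end of its cluster, alone.

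The order of levels was led in every group by HOXB2, a hindbrain patterning gene, at 38.99 ± 2.88 TPM with As2S2, 24.1 ± 1.02 TPM with PMA and 49.7 ± 0.55 TPM in controls (SD, n = 3). HOXB4, known for expanding blood stem cells when overexpressed, and HOXA9 followed it. HOXB4 averaged 18.3 ± 0.83 TPM with As2S2, 13.8 ± 0.23 TPM with PMA and 26.8 ± 0.14 TPM in controls. HOXA9 averaged 15.5 ± 0.37 TPM with As2S2, 14.4 ± 0.40 TPM with PMA and 25.3 ± 1.77 TPM in controls, and its control range overlapped that of HOXB4. HOXB9, next in the control order, averaged 4.95 ± 0.23 TPM with As2S2, 0.633 ± 0.04 TPM with PMA and 15.9 ± 0.31 TPM in controls. HOXB6 averaged 13.5 ± 1.72 TPM with As2S2, 8.73 ± 0.76 TPM with PMA and 12.4 ± 0.79 TPM in controls. HOXB7, HOXA10, HOXB5, HOXD13 and HOXB3 lay between 8.25 and 10.2 TPM in controls, and each of these 5 overlapped the range of its neighbour in the order. These 10 genes held 93.0 ± 0.36% of the HOX sum with As2S2, 89.6 ± 1.08% with PMA and 92.3 ± 0.25% in controls. The other 7 genes expressed in controls lay between 1.01 and 2.86 TPM there.

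**Figure D2:**
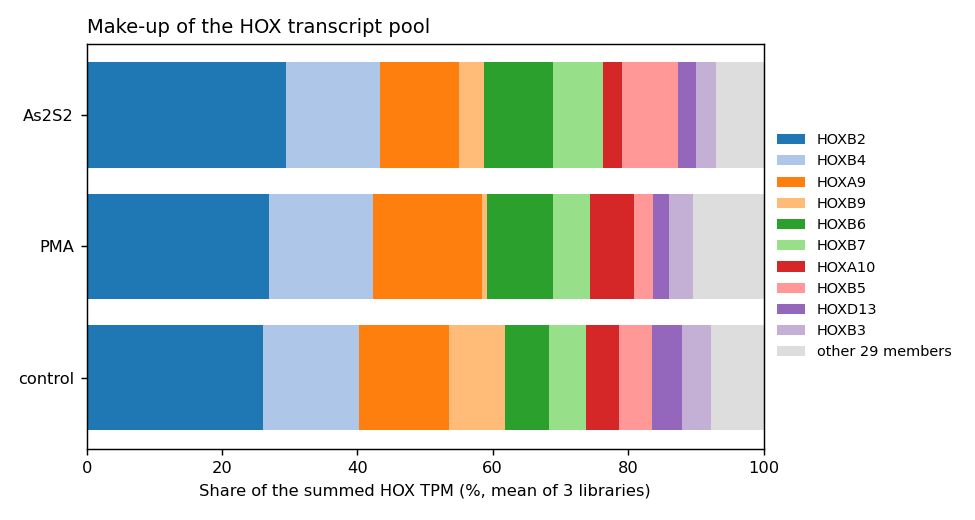
Share of the summed HOX TPM (percent, x axis) held by the 10 HOX genes with the highest control level, with As2S2, with PMA and in controls (1 bar per group, mean of 3 libraries), with the other 29 genes as 1 segment. HOXB2 held the largest share in each group, and HOXB9 held 3.75% with As2S2, 0.708% with PMA and 8.35% in controls.

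Promoter windows, from 250 bases before to 50 bases after the annotated start, were found for 20 of the 39 genes among the RefSeq sequences of GRCh38.p14, and HOXC4 and HOXC5 had the same window. HOXA9 and HOXD13 are shown because they were the only 2 of these 20 with a TATA box (TATAAA), an E-box (CACGTG) and a CCAAT box together, a choice made after the matches were seen. Of all 35116 RefSeq windows, 0.191% held all 3. The 150 bases before each start follow, 5′ to 3′ on the gene's strand, with the 3 motifs on either strand in capitals.
HOXA9, GRCh38.p14 chr7:27165538-27165687, minus strand: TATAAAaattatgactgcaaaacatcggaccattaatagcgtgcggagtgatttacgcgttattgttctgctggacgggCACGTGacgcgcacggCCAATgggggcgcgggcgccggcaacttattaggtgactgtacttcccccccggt
HOXD13, GRCh38.p14 chr2:176092571-176092720, plus strand: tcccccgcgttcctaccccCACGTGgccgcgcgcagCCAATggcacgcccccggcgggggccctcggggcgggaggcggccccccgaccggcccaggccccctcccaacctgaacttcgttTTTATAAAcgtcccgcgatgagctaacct
In the first window the TATA box lies farthest from the start, and in the second it is the last motif before it, where TATAAA and its reverse complement TTTATA overlap.

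Motifs of 7 kinds were searched in the same windows on both strands. The only HOXB gene with a window was HOXB1, so the HOXB genes expressed here were not searched. Of the 17 genes expressed in controls, 6 had a window. The site TGANTCA of AP-1, a factor that protein kinase C activates, was in 0 of 20 HOX windows and 7.71% of all windows. The antioxidant response element TGACNNNGC, bound by the arsenic-responsive factor NRF2, was in 3 of 20 (HOXA6, HOXD4 and HOXD11) and 13.3% of all, and the GATA site AGATAA was in 0 of 20 and 10.3% of all. The E-box was in 8 of 20 against 7.26% of all windows, the CCAAT box in 17 of 20 against 34.6%, the TATA box in 4 of 20 against 11.5%, and the HOX-PBX site TGATNNAT in 3 of 20 against 7.4%. The median number of CpG dinucleotides was 21.5 in 6 windows of genes expressed in controls, 24 in 14 windows of genes that were not, and 14 over all RefSeq windows. The window shared by HOXC4 and HOXC5 is in both the 6 and the 14, and the motif counts above hold it for each gene. A match is only a match of letters.

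Of the 20 genes without a test, 7 had 0 counts in all 9 libraries, namely HOXA2, HOXC11, HOXC12, HOXC13, HOXD3, HOXD4 and HOXD11. The other 13 had few counts, given here as sums over the 3 libraries of As2S2, PMA and control. HOXC10 had 9, 19 and 15 counts, HOXD12 had 8, 4 and 6, HOXA3 had 2, 2 and 7, HOXA4 had 2, 1 and 4, and HOXA6 had 7, 3 and 1. HOXD1 had 0, 0 and 8 counts, and all 8 came from control replicate 1. HOXB1, HOXB13, HOXC5, HOXD8, HOXD9 and HOXD10 had at most 2 counts in any group.

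Counts were compared between groups as TMM-scaled CPM (with library totals scaled so that most genes match between libraries) with the quasi-likelihood test of edgeR, adjusted over all 14592 genes tested, and each log2 fold change carries its SE. The scaling factors were 1.02 to 1.03 for As2S2, 0.892 to 0.922 for PMA and 1.04 to 1.11 for control libraries. On library totals without them, the median gene stood 0.26 lower in PMA than in control on the log2 scale, 0.08 lower in As2S2 than in control, and 0.18 higher in As2S2 than in PMA. All changes below are relative to the median gene. TPM differences between groups include a shift that can be larger than the shift on library totals. HOXB6 averaged 8.73 TPM with PMA and 12.4 TPM in controls. Its log2 fold change with PMA was -0.23 on library totals without TMM and 0.02 ± 0.12 with TMM. In bulk RNA, fewer cells with a transcript and less RNA per cell cannot be told apart.

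With As2S2, 11 of the 19 tested genes fell (57.9%) and 1 rose (5.26%), where 19.6% of all tested genes fell and 20.3% rose (39.9% either way). The 11 were HOXA7, HOXA9, HOXA10, HOXA11, HOXB2, HOXB3, HOXB4, HOXB9, HOXC4, HOXC8 and HOXD13, and the gene that rose was HOXB5. The median log2 fold change of the 19 was -0.43. In CPM, 11 had all As2S2 libraries below all control libraries, against 22.7% of all tested genes, and 1 had them all above, against 23.1%. Without the 2 divergent libraries, 9 fell and 2 rose, and the shares of all tested genes that fell and rose were then 24.8% and 25.4%.

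With PMA, 11 of the 19 fell (57.9%) and 0 rose by the edgeR test, where 31.1% of all tested genes fell and 30.8% rose (61.9% either way). The 11 were HOXA7, HOXA9, HOXA11, HOXB2, HOXB3, HOXB4, HOXB5, HOXB7, HOXB9, HOXC4 and HOXD13. The count of genes that rose was also 0 with DESeq2 and with limma-voom, and 1 gene, HOXC9, was higher at an unadjusted p under 0.05 in edgeR (0 in each of the others). The median log2 fold change was -0.57, both treatments are set against the same control libraries, and in CPM 11 genes had all PMA libraries below all control libraries (33.7% of all tested genes) and 1, HOXC9, had them all above (33.8%).

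**Figure D3:**
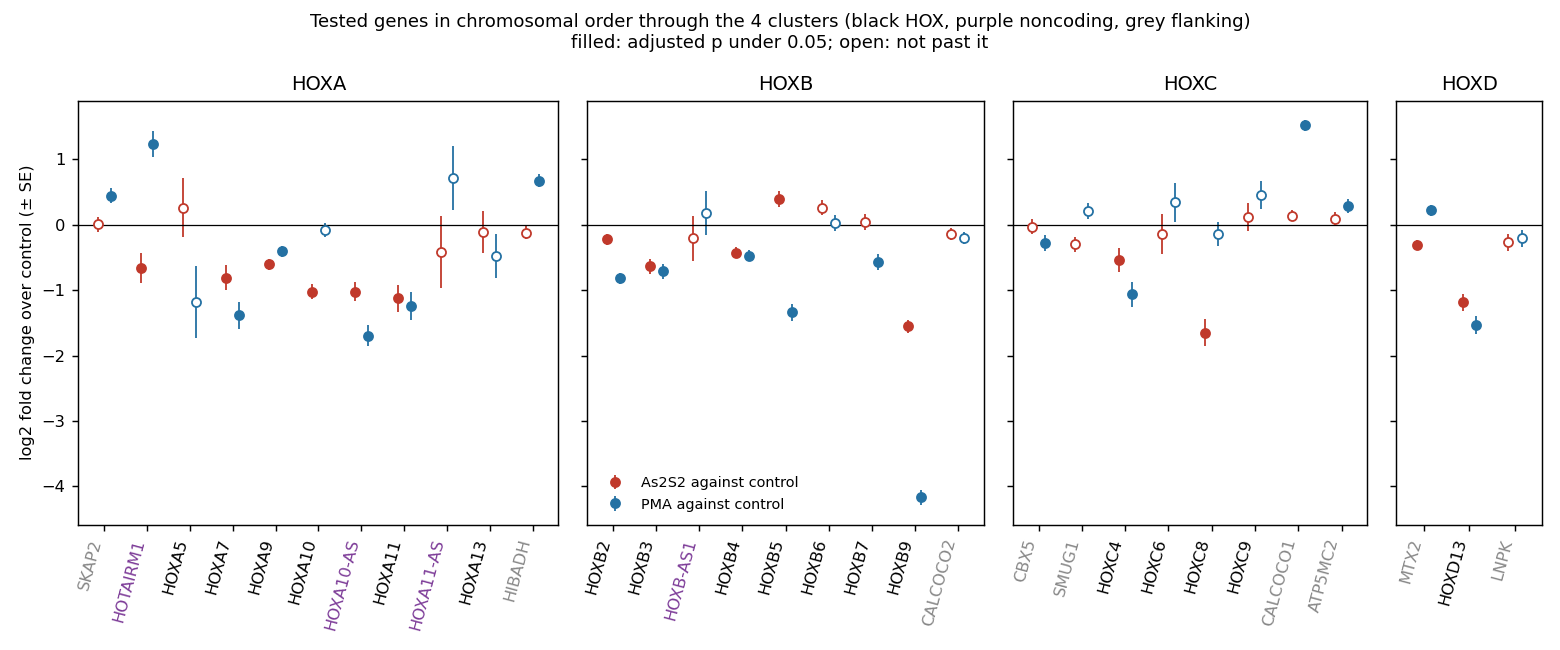
Log2 fold change (y axis, ± SE) with As2S2 and with PMA against control for tested HOX genes, noncoding RNAs and flanking genes of each cluster, in their order along the chromosome (x axis, not to scale). Filled points passed the edgeR test at an adjusted p of 0.05 and open points did not. HOXB9 under PMA lies lowest, at -4.17.

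In HOXA, 4 of the 7 tested genes fell with As2S2 (57.1%) and 3 fell with PMA (42.9%). Of all tested genes 19.6% fell with As2S2 and 31.1% fell with PMA. None of the 7 rose, where 20.3% of all tested genes rose with As2S2 and 30.8% rose with PMA. The 4 were the genes from HOXA7 to HOXA11 with a test, and the 3 were among them. HOXA5 before these genes and HOXA13 after them did not pass the test in either comparison.

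HOXA9 (ENSG00000078399) had 24.2, 25.6 and 25.0 CPM in As2S2 libraries, 29.7, 29.3 and 26.9 CPM in PMA libraries and 36.7, 38.2 and 39.1 CPM in control libraries. The 3 groups did not overlap, with As2S2 lowest and control highest. The log2 fold change was -0.61 ± 0.09 with As2S2 (edgeR adjusted p = 3.94e-05) and -0.41 ± 0.09 with PMA (adjusted p = 0.000561), and As2S2 against PMA gave -0.20 ± 0.09 (adjusted p = 0.0581). That last value passed the threshold with upper-quartile scaling (-0.25, adjusted p = 0.0183) and with a stricter filter (-0.20, adjusted p = 0.0488).

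HOXA10 (ENSG00000253293), which in mouse and human cells influences erythroid and megakaryocytic progenitors when overexpressed, had 9.39, 11.2 and 11.9 CPM with As2S2, 19.2, 22.0 and 21.2 CPM with PMA and 20.9, 24.4 and 20.9 CPM in controls. The As2S2 libraries lay below all others, and those of PMA and control overlapped. It fell by 1.02 on the log2 scale with As2S2 (SE 0.12, edgeR adjusted p = 4.39e-06), had -0.08 ± 0.11 with PMA (adjusted p = 0.545), and was lower in As2S2 than in PMA (-0.94 ± 0.12, adjusted p = 3.22e-06). On library totals without TMM the PMA value was -0.34 (adjusted p = 0.0122). Its deposited counts were whole numbers in 1 of 9 libraries, so part of its reads was assigned by estimation.

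HOXA7 (ENSG00000122592), a paralogue of the trunk region, had 1.93, 3.07 and 2.46 CPM with As2S2, 1.73, 1.62 and 1.67 CPM with PMA and 4.39, 4.396 and 4.36 CPM in controls. The groups did not overlap, with PMA lowest. It fell with As2S2 (-0.81 ± 0.19, edgeR adjusted p = 0.003) and with PMA (-1.39 ± 0.21, adjusted p = 2.06e-05). As2S2 was higher than PMA (0.57 ± 0.22, adjusted p = 0.0321), a call that was lost with each of As2S2 replicates 2 and 3 and PMA replicates 1, 2 and 3 left out (adjusted p 0.0545 to 0.16). It was also lost with DESeq2 (adjusted p = 0.0698), limma-voom (0.0538), upper-quartile scaling (0.0502) and a fit of the 2 groups alone (0.0502).

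HOXA11 (ENSG00000005073), a limb and uterus gene, had 2.50, 2.37 and 1.78 CPM with As2S2, 2.53, 2.02 and 1.61 CPM with PMA and 4.02, 5.48 and 5.07 CPM in controls. Libraries of both treatments lay below the controls and overlapped each other. It fell by 1.13 on the log2 scale with As2S2 (SE 0.21, edgeR adjusted p = 0.000494) and by 1.25 with PMA (SE 0.22, adjusted p = 0.000103), and As2S2 against PMA gave 0.12 ± 0.24 (adjusted p = 0.686).

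HOXA5 (ENSG00000106004) was near the floor of the test and passed the filter on low counts through libraries of As2S2 and control. It had 0.417, 0.705 and 0.628 CPM with As2S2, 0.432, 0.116 and 0.108 CPM with PMA and 0.601, 0.465 and 0.400 CPM in controls, so that PMA replicate 1 overlapped both other groups. As2S2 was higher than PMA (1.43 ± 0.54, edgeR adjusted p = 0.0298), 2.33 without PMA replicate 1 and not past the threshold without As2S2 replicates 2 or 3 or PMA replicates 2 or 3 (adjusted p 0.0732 to 0.132), nor with DESeq2 (adjusted p = 0.0722). Against control it had 0.25 ± 0.45 with As2S2 (adjusted p = 0.691) and -1.18 ± 0.55 with PMA (adjusted p = 0.0723). The PMA value passed the threshold without PMA replicate 1 (-2.07, adjusted p = 0.0145), with limma-voom (-1.31, adjusted p = 0.0411) and without TMM (-1.44, adjusted p = 0.0297).

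HOXA13 (ENSG00000106031), the 5′ end, ranged from 0.991 to 1.31, 0.635 to 1.24 and 1.02 to 1.38 CPM in As2S2, PMA and control libraries, and its log2 fold changes were -0.12 ± 0.32 and -0.48 ± 0.34 with As2S2 and PMA.

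**Figure D4:**
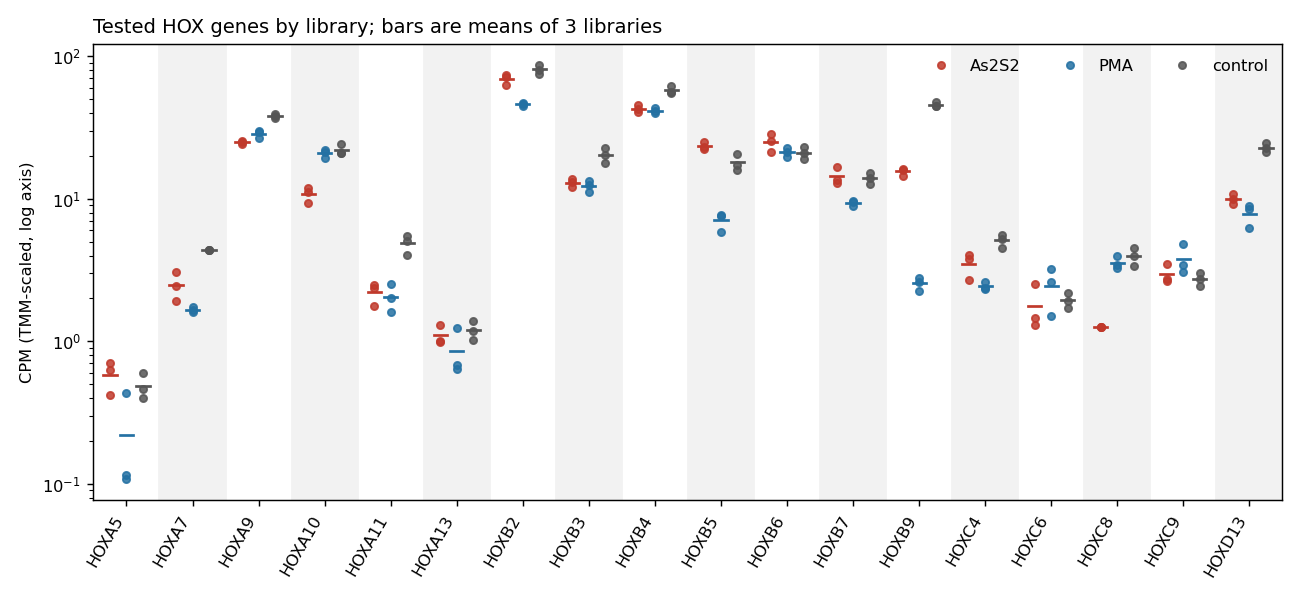
TMM-scaled CPM (y axis, log scale) of 18 of the 19 tested HOX genes (x axis) in each library of As2S2, PMA and control, with each point a library and each bar the mean of 3. HOXB9 shows 3 separate levels, HOXB5 is low with PMA alone, and HOXA10 and HOXC8 are low with As2S2 alone.

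In HOXB, all 7 genes with a test but HOXB6 fell with PMA (85.7%, against 31.1% of all tested genes). With As2S2 the genes on the 3′ side (HOXB2, HOXB3 and HOXB4) and HOXB9 fell, HOXB5 rose, and HOXB6 and HOXB7 did not pass. With As2S2 57.1% of the 7 fell, against 19.6% of all tested genes, and 14.3% rose, against 20.3%. Summed over the 7, CPM was 0.791 of the control mean with As2S2 and 0.544 with PMA.

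HOXB9 (ENSG00000170689), a gene of the thoracic region, had the lowest log2 fold change of the 19 genes with PMA. It had 14.6, 16.1 and 16.0 CPM with As2S2, 2.78, 2.60 and 2.26 CPM with PMA and 44.7, 47.6 and 44.8 CPM in controls, and the 3 groups lay far apart. The summed counts behind them were 905, 132 and 2896. It fell by 1.55 on the log2 scale with As2S2 (SE 0.09, edgeR adjusted p = 5.49e-09), which is 2.94-fold lower, and by 4.17 with PMA (SE 0.12, adjusted p = 6.52e-14), which is 17.98-fold lower. As2S2 was 6.12-fold higher than PMA (2.61 ± 0.12, adjusted p = 3.74e-11).

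HOXB5 (ENSG00000120075), which in mouse marks long-term blood stem cells, was higher with As2S2 and lower with PMA than in controls. It had 22.5, 25.1 and 23.1 CPM with As2S2, 5.86, 7.57 and 7.75 CPM with PMA and 17.2, 20.7 and 16.1 CPM in controls, and no groups overlapped. It rose by 0.39 ± 0.12 with As2S2 (edgeR adjusted p = 0.0158) and fell by 1.34 with PMA (SE 0.13, adjusted p = 2.37e-07). As2S2 was 3.33-fold higher than PMA (1.73 ± 0.13, adjusted p = 1.16e-08). The rise with As2S2 was not past the threshold without As2S2 replicate 2 (0.35), control replicate 1 (0.37) or control replicate 3 (0.32).

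HOXB2 (ENSG00000173917) had 63.0, 71.4 and 73.7 CPM with As2S2, 46.4, 46.9 and 44.7 CPM with PMA and 80.3, 87.3 and 75.3 CPM in controls. All PMA libraries were below all As2S2 libraries, and these were below the controls by a narrow gap. It fell by 0.82 on the log2 scale with PMA (SE 0.08, edgeR adjusted p = 3.82e-07), and As2S2 was higher than PMA (0.59 ± 0.08, adjusted p = 1.43e-05). With As2S2 it fell by 0.22 (SE 0.08, adjusted p = 0.0416), but this call was lost without As2S2 replicates 1 or 2, control replicates 1 or 2 or any PMA replicate (log2 fold changes -0.24 to -0.15), with no filter (adjusted p = 0.0507) and in a fit of the 2 groups alone (adjusted p = 0.0662). It was -0.10 without the 2 divergent libraries (adjusted p = 0.169).

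HOXB3 and HOXB4, whose transcripts overlap, fell with either agent. HOXB3 (ENSG00000120093) had 12.1, 13.2 and 13.7 CPM with As2S2, 11.1, 12.5 and 13.4 CPM with PMA and 17.8, 20.4 and 22.6 CPM in controls, with log2 fold changes of -0.64 ± 0.12 (edgeR adjusted p = 0.000385) and -0.71 ± 0.12 (adjusted p = 6.11e-05). HOXB4 (ENSG00000182742) had 40.7, 45.3 and 42.8 CPM with As2S2, 43.1, 41.2 and 40.1 CPM with PMA and 55.7, 61.8 and 55.8 CPM in controls, with log2 fold changes of -0.43 ± 0.08 (adjusted p = 0.000598) and -0.48 ± 0.08 (adjusted p = 9.46e-05). For both genes the libraries of the 2 treatments overlapped each other and lay below all controls. As2S2 against PMA gave 0.07 ± 0.12 for HOXB3 (adjusted p = 0.625) and 0.05 ± 0.08 for HOXB4 (adjusted p = 0.627, and 0.23 with adjusted p = 0.0169 without TMM).

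HOXB7 (ENSG00000260027) had 13.5, 12.99 and 16.6 CPM with As2S2, 9.68, 8.90 and 9.47 CPM with PMA and 14.1, 15.1 and 12.6 CPM in controls. The PMA libraries lay below the other 6, which overlapped. It fell with PMA (-0.57 ± 0.13, edgeR adjusted p = 0.000825), was higher in As2S2 than in PMA (0.62 ± 0.13, adjusted p = 0.000461), and had 0.04 ± 0.12 with As2S2 (adjusted p = 0.807). Its neighbour HOXB6 (ENSG00000108511) ranged from 21.4 to 28.5 CPM with As2S2, 19.7 to 22.8 CPM with PMA and 18.9 to 23.0 CPM in controls. HOXB6 had 0.26 ± 0.12 with As2S2 (adjusted p = 0.0838), which was 0.43 without the 2 divergent libraries (adjusted p = 0.000634), 0.37 without As2S2 replicate 1 and 0.33 without control replicate 2, and 0.02 ± 0.12 with PMA (adjusted p = 0.869, and -0.23 on library totals without TMM). As2S2 against PMA gave 0.24 ± 0.12 for HOXB6 (adjusted p = 0.0892). That value was past the threshold without the 2 divergent libraries (0.35, adjusted p = 0.00151), without As2S2 replicate 1 alone (0.35, adjusted p = 0.0125), without control replicate 2 alone (0.25, adjusted p = 0.0496), with a replicate block (0.23, adjusted p = 0.0437) and without TMM (0.41, adjusted p = 0.00525).

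In HOXC and HOXD the levels were lower, and HOXC8 and HOXD13 carried the largest differences. HOXC8 (ENSG00000037965), which specifies neurons of the brachial spinal cord in mouse, had 1.25, 1.26 and 1.25 CPM with As2S2, 3.27, 3.99 and 3.44 CPM with PMA and 3.97, 4.55 and 3.38 CPM in controls. The As2S2 libraries lay below all others, and PMA and control overlapped. It fell by 1.65 on the log2 scale with As2S2 (SE 0.21, edgeR adjusted p = 1.26e-05), had -0.15 ± 0.18 with PMA (adjusted p = 0.494), and was lower in As2S2 than in PMA (-1.502 ± 0.21, adjusted p = 1.3e-05).

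HOXC4 (ENSG00000198353), the 3′ gene of its cluster, had 2.71, 4.03 and 3.77 CPM with As2S2, 2.34, 2.60 and 2.37 CPM with PMA and 5.59, 5.22 and 4.49 CPM in controls. The 3 groups did not overlap. It fell with PMA (-1.06 ± 0.19, edgeR adjusted p = 0.000139) and with As2S2 (-0.54 ± 0.18, adjusted p = 0.0243), the second not past the threshold without As2S2 replicate 1 (-0.38), without control replicate 1 (-0.46), or without the 2 divergent libraries (-0.37). As2S2 against PMA gave 0.52 ± 0.20 (adjusted p = 0.0314), lost without As2S2 replicates 2 or 3 or PMA replicates 1 or 3 (adjusted p 0.0783 to 0.124). It was also lost with DESeq2 (adjusted p = 0.062), limma-voom (0.0514) and upper-quartile scaling (0.0512).

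HOXC6 (ENSG00000197757) ranged from 1.31 to 2.51 CPM with As2S2, 1.502 to 3.23 CPM with PMA and 1.71 to 2.18 CPM in controls, and passed no test. HOXC9 (ENSG00000180806) ranged from 2.66 to 3.50 CPM with As2S2, 3.07 to 4.81 CPM with PMA and 2.43 to 3.03 CPM in controls. Its log2 fold change was 0.11 ± 0.21 with As2S2 (edgeR adjusted p = 0.71) and 0.45 ± 0.21 with PMA (adjusted p = 0.072), which was 0.58 without PMA replicate 3 (adjusted p = 0.0391).

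HOXD13 (ENSG00000128714), the digit-patterning gene whose fusion to NUP98 the mice of this series carry, had 9.18, 10.8 and 10.04 CPM with As2S2, 8.45, 8.95 and 6.24 CPM with PMA and 21.2, 24.8 and 22.6 CPM in controls, from 583, 408 and 1444 summed counts. Every control library lay above every library of both treatments, and the PMA libraries lay below those of As2S2. It fell 2.28-fold with As2S2 (-1.19 ± 0.13, edgeR adjusted p = 2.96e-06) and 2.90-fold with PMA (-1.54 ± 0.13, adjusted p = 5.24e-08). As2S2 was higher than PMA by 0.35 ± 0.14 (adjusted p = 0.0407), not past the threshold without As2S2 replicates 2 or 3 or PMA replicate 3 (0.21 without the last), nor with upper-quartile scaling (0.30, adjusted p = 0.0767). The 8 other HOXD genes had at most 8 counts summed over a group, and the counts do not tell a whole HOXD13 transcript from part of one.

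Set directly against PMA, As2S2 had 8 of the 19 genes higher (42.1%) and 2 lower (10.5%), where 30.9% of all tested genes were higher and 30.6% lower (61.4% either way). The 8 were HOXA5, HOXA7, HOXB2, HOXB5, HOXB7, HOXB9, HOXC4 and HOXD13, and the 2 were HOXA10 and HOXC8. HOXA5 is counted here although it passed the filter on low counts only through libraries of As2S2 and control. The median log2 fold change of the 19 was 0.24. HOXB2, HOXB5, HOXB7, HOXB9, HOXA10 and HOXC8 kept the call under every alternative tried, and the 4 others lost it under some. In CPM 7 genes had all As2S2 libraries above all PMA libraries and 4 had them all below, where 33.6% of all tested genes did each. HOXC6, HOXC9 and HOXA13 were not past the threshold, at -0.48 ± 0.30, -0.34 ± 0.21 and 0.36 ± 0.34. HOXC6 passed it without As2S2 replicate 3 (-0.81, adjusted p = 0.0433) and without PMA replicate 2 (-0.72, adjusted p = 0.0491).

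**Figure D5:**
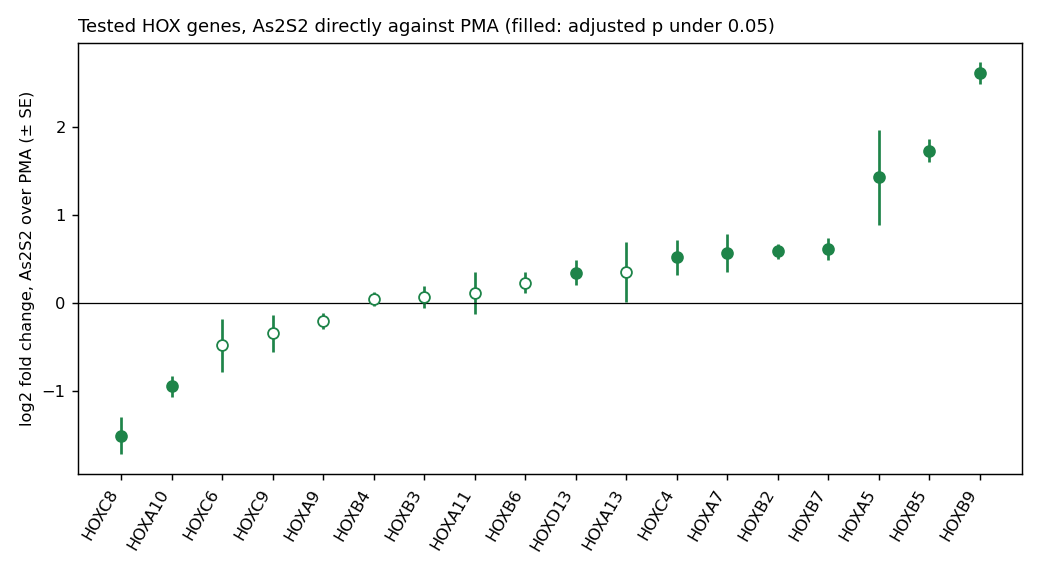
Log2 fold change of As2S2 over PMA (y axis, ± SE) for 18 of the 19 tested HOX genes (x axis, in order of the change). Filled points passed the edgeR test at an adjusted p of 0.05. Points above 0 are higher in As2S2, with HOXB9 at 2.61 and HOXB5 at 1.73, and points below 0 are higher in PMA, with HOXC8 at -1.502 and HOXA10 at -0.94.

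Noncoding RNAs transcribed inside the clusters were measured beside the genes, and 4 of 18 had enough counts. With As2S2 2 of these 4 fell, and with PMA 1 rose and 1 fell, against 39.9% and 61.9% of all tested genes called either way. HOTAIRM1, a myeloid RNA from the 3′ side of HOXA, averaged 1.37 ± 0.24 CPM with As2S2, 5.11 ± 0.23 CPM with PMA and 2.18 ± 0.47 CPM in controls (SD, n = 3). It fell with As2S2 (-0.66 ± 0.23, edgeR adjusted p = 0.0314), rose with PMA (1.22 ± 0.20, adjusted p = 5.71e-05), and was lower in As2S2 than in PMA by 1.89 (SE 0.22, adjusted p = 1.32e-06). HOXA10-AS averaged 4.38 ± 0.63 CPM with As2S2, 2.75 ± 0.38 CPM with PMA and 8.92 ± 0.29 CPM in controls. It fell with As2S2 (-1.02 ± 0.15, adjusted p = 5.97e-05) and with PMA (-1.70 ± 0.16, adjusted p = 1.64e-07), while HOXA10 had -1.02 and -0.08. The library kit and counting are not stated to keep strand, so reads of HOXA10-AS and of the genes it overlaps cannot be told apart. HOXA11-AS and HOXB-AS1 passed no test. HOTTIP, from the 5′ end of HOXA, had 16, 4 and 11 counts summed over As2S2, PMA and control libraries, and HOTAIR had 0.

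Genes that flank the clusters were set beside them, and 9 of 15 had enough counts. With As2S2 1 fell, and with PMA 5 rose and 1 fell. The 6 of 9 called either way with PMA are near the share of all tested genes (61.9%), and the 1 of 9 with As2S2 is below it (39.9%). CALCOCO1, next to HOXC, rose with PMA (1.52 ± 0.08, edgeR adjusted p = 1.13e-10) and had 0.14 ± 0.08 with As2S2. HIBADH, next to the 5′ end of HOXA, rose with PMA (0.67 ± 0.10, adjusted p = 1.6e-05) and had -0.12 ± 0.10 with As2S2. MTX2, beyond the 3′ end of HOXD, fell with As2S2 (-0.31 ± 0.08, adjusted p = 0.00596) and rose with PMA (0.21 ± 0.08, adjusted p = 0.029). SMUG1, near HOXC, had -0.30 ± 0.12 with As2S2 and 0.21 ± 0.12 with PMA, neither past the threshold.

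DNA-binding partners of HOX proteins come from the TALE homeobox family, and 9 of its 11 listed genes had enough counts. With As2S2 1 rose and 4 fell, and with PMA 3 rose and 2 fell, with median log2 fold changes of -0.22 and 0.15. Called either way were 5 of 9 with each agent, against 39.9% of all tested genes with As2S2 and 61.9% with PMA, so that the PMA count is no more than this background. MEIS1, the usual partner of HOXA9 in leukaemia, was close to absent, with 1, 17 and 5 counts summed over As2S2, PMA and control libraries. PBX3, another such partner, fell with As2S2 (-0.62 ± 0.16, edgeR adjusted p = 0.00652) and with PMA (-0.64 ± 0.17, adjusted p = 0.00311). MEIS3 and PBX4 rose with PMA, by 2.71 ± 0.29 (adjusted p = 5.52e-07) and 2.64 ± 0.31 (adjusted p = 1.73e-06), and had 0.63 ± 0.34 and 0.54 ± 0.37 with As2S2. PBX2, the TALE gene with 102 ± 3.67, 150 ± 3.85 and 119 ± 1.97 CPM in As2S2, PMA and control libraries, fell with As2S2 (-0.22 ± 0.07, adjusted p = 0.0126) and rose with PMA (0.34 ± 0.07, adjusted p = 0.000267). TGIF2, a TALE repressor, fell with both, by 0.35 (SE 0.09, adjusted p = 0.00563) and by 0.63 (SE 0.09, adjusted p = 1.77e-05).

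Chromatin activators of HOX genes, the MLL complex with its elongation partners, had 20 of 20 genes tested. With As2S2 2 rose and 5 fell, and with PMA 2 rose and 13 fell, with median log2 fold changes of -0.13 and -0.50. The 7 of 20 called with As2S2 are near the 39.9% of all tested genes, and with PMA the 13 that fell stand beside 31.1% of all tested genes that fell. KMT2A, which encodes the MLL histone methyltransferase, rose with As2S2 (0.28 ± 0.10, edgeR adjusted p = 0.0402) and fell with PMA (-0.78 ± 0.11, adjusted p = 8.71e-06). With PMA the H3K27 demethylase gene KDM6B (-1.64 ± 0.11, adjusted p = 2.45e-09), PSIP1, which tethers MLL to chromatin (-1.47 ± 0.13, adjusted p = 5.41e-08), and MLLT10 (-1.002 ± 0.10, adjusted p = 1.73e-07) fell, and the complex subunit DPY30 rose (1.04 ± 0.10, adjusted p = 1.33e-07). With As2S2, KDM6B, PSIP1 and DPY30 had -0.14 ± 0.10, -0.17 ± 0.12 and 0.17 ± 0.10 and did not pass, and MLLT10 fell (-0.46 ± 0.09, adjusted p = 0.00096).

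Polycomb genes, whose complexes silence HOX clusters, had 25 of 25 tested. With As2S2 8 rose and 2 fell, and with PMA 5 rose and 11 fell, with median log2 fold changes of 0.15 and -0.21. Called either way were 10 of 25 with As2S2 and 16 of 25 with PMA, which is near the 39.9% and 61.9% of all tested genes. EZH2, the H3K27 methyltransferase, had 0.06 ± 0.11 with As2S2 (edgeR adjusted p = 0.704) and fell with PMA (-1.06 ± 0.11, adjusted p = 5.78e-07). CBX2 had 0.22 ± 0.10 with As2S2 (adjusted p = 0.082) and fell with PMA (-0.84 ± 0.10, adjusted p = 2.71e-06). PHF19 rose with As2S2 (0.25 ± 0.09, adjusted p = 0.0359) and fell with PMA (-0.62 ± 0.09, adjusted p = 1.8e-05).

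Upstream regulators of HOX genes in the embryo include the CDX factors and retinoic acid. None of the 3 CDX genes had enough counts for a test. Of 18 retinoic acid genes 10 were tested, of which 2 fell with As2S2 and 3 rose and 1 fell with PMA, with median log2 fold changes of 0.05 and 0.29. These 2 of 10 with As2S2 and 4 of 10 with PMA are below the 39.9% and 61.9% of all tested genes called either way. RDH10, which oxidises retinol, averaged 34.4 ± 1.14 CPM with As2S2, 210 ± 4.37 CPM with PMA and 55.1 ± 2.89 CPM in controls (SD, n = 3). It fell with As2S2 (-0.68 ± 0.07, edgeR adjusted p = 2.58e-06) and rose with PMA (1.93 ± 0.07, adjusted p = 1.29e-12). ALDH1A1, which makes retinoic acid, fell with As2S2 (-2.01 ± 0.11, adjusted p = 2.1e-09) and had -0.19 ± 0.11 with PMA (adjusted p = 0.137). DHRS3, which reduces retinal and is itself induced by retinoic acid, rose with PMA (1.28 ± 0.11, adjusted p = 3.27e-08) and had -0.04 ± 0.11 with As2S2, and the receptor gene RARA fell with PMA (-0.63 ± 0.11, adjusted p = 8.13e-05) and had 0.12 ± 0.10 with As2S2.

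Homeobox genes outside the clusters that blood cells use gave 10 tested of 15, with 1 that rose and 5 that fell with As2S2, and 1 that rose and 8 that fell with PMA, with median log2 fold changes of -0.22 and -0.55. Of all tested genes 20.3% rose and 19.6% fell with As2S2, and 30.8% rose and 31.1% fell with PMA. ZHX1 fell with As2S2 (-0.75 ± 0.15, edgeR adjusted p = 0.0011) and with PMA (-1.57 ± 0.17, adjusted p = 4.88e-07). ZHX2 rose with As2S2 (0.94 ± 0.14, adjusted p = 5.51e-05) and had -0.03 ± 0.15 with PMA. ADNP and CUX1 had -0.08 ± 0.09 and -0.06 ± 0.09 with As2S2 and fell with PMA, by 0.87 (adjusted p = 9.31e-07) and 0.75 (adjusted p = 2.33e-06).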

How the data were processed

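Polyadenylated RNA was sequenced from 9 MEG-01 libraries, and groups and replicate numbers come from the sample labels. Per the labels' protocols the kit was NEBNext Ultra II. Per the submitters' processing notes fastp 0.22.0 and DESeq2 were used, and the builds named there are of zebrafish, while the tables carry human Ensembl IDs and 1 control sample has an organism label other than human. Not given in the sources used here were the aligner, counting tool, strand setting and annotation.

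The authors deposited, per the file headers, estimated counts (expected counts, not normalized) and TPM for each gene and library, and each treatment's table also holds adjusted p-values and log2 fold changes of the authors' comparison. Those last values were not used. Symbols were found for 62666 of 63241 IDs. Among counts above 0, 70.8% to 73.4% per library were whole numbers, and the rest were rounded before testing. Total counts of 18.2 to 20.4 in units of 1000000 and 3 libraries per group set the precision, and the fitted common dispersion had a square root of 0.0909.

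Genes kept by filterByExpr (14592) were scaled by TMM and tested with the quasi-likelihood test of edgeR 4.0.16 (R 4.3.3) in 1 fit of all libraries with group as the factor, calling an adjusted p (Benjamini-Hochberg) under 0.05. SEs are the log2 fold change over the root of the F statistic, and the procedure was tested on simulated data. A gene counted as expressed at a mean of at least 1 TPM. Every tested HOX gene but 1, which is not reported here, is named, with each library's value where it passed any of the 3 comparisons. Up to 4 genes per context list with the smallest adjusted p are named where reported, along with HOXD13, MEIS1, PBX3, KMT2A, HOTAIRM1 and HOTTIP. The members and lists were chosen with earlier results of these data known. Alternatives were other scalings, DESeq2 1.42.0, voom of limma 3.58.1, other filters and thresholds, a fit of the groups compared alone, a replicate block, and each library left out. Library totals without TMM, and leaving out As2S2 replicate 1 with control replicate 2, were chosen after seeing the data. Promoter windows are RefSeq sequences of GRCh38.p14.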

Additional observations from a re-analysis of the deposited data

How the results depend on the processing

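With PMA against control, all 11 genes that fell kept the call under every alternative tried. On library totals without TMM 13 fell, where 44.4% of all tested genes fell, against 31.1% with TMM. With As2S2 against control 9 of 12 calls were kept throughout, the exceptions being HOXB2, HOXB5 and HOXC4, and in As2S2 against PMA 6 of 10. The number of genes that fell with As2S2 was 9 to 11 with 1 library left out, and with PMA 11 to 12. Of all tested genes 14.85% to 20.16% then fell with As2S2, and 27.8% to 31.84% fell with PMA. The number that rose with As2S2, 1, became 0 at a threshold of 0.01, where shares of all tested genes were not computed. It was 2 with a replicate block (20.59% of all tested genes). It was also 2 without As2S2 replicate 1 and control replicate 2 together (25.44%), and 0 to 2 with 1 library left out (16.18% to 22.05%). With PMA, 0 to 1 rose with 1 library left out (27.78% to 31.79% of all tested genes). In As2S2 against PMA, the 8 higher genes became 4 at a threshold of 0.01. They became 5 with upper-quartile scaling (28.5% of all tested genes) and 5 with DESeq2 (29.56%). With 1 library left out, 4 to 9 were higher (27.7% to 32.37%) and 2 to 3 were lower (27.06% to 31.54%). With PMA, 17 genes reached a mean of 0.5 TPM, against 11 at 1 TPM. Same-numbered libraries of different groups had correlations of their deviations of -0.073 to 0.15. Libraries with different numbers were not compared in this way, so whether the replicate numbers pair the libraries was not settled. The replicate block changed no other count of HOX calls by over 1.5 times.

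Directions turned round in tests that passed no threshold either way. With 1 library left out, the log2 fold change of As2S2 against control ran from -0.26 to 0.0040 for HOXA13, from -0.075 to 0.12 for HOXB7, from -0.48 to 0.042 for HOXC6 and from -0.023 to 0.20 for HOXC9. Without TMM it was -0.038 for HOXB7. For PMA against control, HOXB6 ran from -0.044 to 0.087 with 1 library left out and was -0.023 without a filter and -0.23 without TMM. For As2S2 against PMA, HOXA11 ran from -0.030 to 0.29 with 1 library left out, and HOXB4 was -0.0046 with upper-quartile scaling. The cause was not tested. Genes near or under 1 CPM, such as HOXA13 and HOXA5, had SEs of 0.32 to 0.55 against control, so differences of that size were not detectable at this depth.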

Other observations

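The deposited counts and TPM together give the effective transcript length on which each gene's reads were placed, here relative to the control mean of that gene. For HOXB9 it was 1.002 ± 0.00082 with As2S2 and 1.005 ± 0.0025 with PMA (SD, n = 3), and for HOXD13 it was 1.001 ± 0.00064 with As2S2 and 1.002 ± 0.0011 with PMA. For HOXA10 it was 1.18 ± 0.025 with As2S2 and 1.12 ± 0.11 with PMA, against 1 ± 0.062 in controls. For HOXB3 it was 1.22 ± 0.080 with As2S2 and 1.15 ± 0.12 with PMA, against 1 ± 0.082 in controls. For HOXB2 it was 1.003 ± 0.019 with As2S2 and 0.846 ± 0.026 with PMA, against 1 ± 0.023 in controls. For HOXC9 it was 1.28 ± 0.24 with As2S2 and 0.907 ± 0.11 with PMA, against 1 ± 0.069 in controls. For HOXA13 it was 1.22 ± 0.13 with As2S2 and 1.28 ± 0.032 with PMA, against 1 ± 0.17 in controls. For HOXA7 it was 1.045 ± 0.0040 with As2S2 and 0.832 ± 0.21 with PMA, against 1 ± 0.077 in controls. A longer effective length lowers TPM relative to CPM, and no test was run on these lengths.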
